A study of Cardamine sp. SIM-2007 with 7 samples.

Results

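The comparison set inflorescence primordia of plants chilled for 28 days after germination against primordia of plants chilled for 14 days after germination, in the cress Cardamine kokaiensis. Both groups were chilled at the same stage and differed in the length of chilling, and, by their labels, in the flowers they formed. The longer chilling gave cleistogamous flowers (CL), which stay closed and pollinate themselves, and the shorter chilling gave intermediate flowers (INT). The members were the arrays titled CL 1, CL 2, INT 1 and INT 2, which are 4 of the 7 arrays of the series. Each group had 2 arrays, labelled as biological replicates, and every array held total RNA of 160 first-inflorescence primordia pooled in 1 tube, taken once the first flower primordium could be seen and carrying the primordia of the first to the eighth flower. The other arrays held chasmogamous, open flowers (CH, 2 arrays, 14 days of chilling before germination) and leaf genomic DNA (1 array). The genomic DNA array had served the authors to calibrate an Arabidopsis thaliana array for use in another species. A value is therefore the light from Arabidopsis probes bound by Cardamine RNA, and each gene is named by the Arabidopsis gene its probe set was designed for.

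Many plants of temperate climates read a period of cold as a cue for flowering, and in Arabidopsis this vernalization acts through chromatin-based silencing of floral repressors in the meristem. Cold also raises a separate set of genes for protective proteins within hours to days, and their transcripts fall again after the cold ends. In closed flowers, petals and stamens grow less and pollen germinates inside the bud. Growth of these organs in Arabidopsis depends on organ identity and patterning genes, on the hormones gibberellin, auxin and jasmonate, and on enzymes that loosen the cell wall.

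Of the 22746 probe sets tested, 13513 were assigned to 1 gene by the platform annotation, which covered 13350 different genes, and 8730 to none. The gene lists below hold Arabidopsis symbols, and only the members named by that annotation could be read. Of 18 markers of inflorescence and flower primordia, 4 were named. Levels are given as log2(intensity + 28.2) after quantile normalization, for replicate 1 and then replicate 2, and the median probe set stood at 8.22. JAGGED (JAG), a gene of organ growth, read 8.16 and 7.71 in CL and 7.85 and 8.34 in INT. UFO, which acts with LEAFY in floral meristems, read 6.79 and 9.08 in CL and 8.67 and 8.13 in INT. The stem cell peptide CLAVATA3 (CLV3) and PETAL LOSS (PTL) read below 7.4 on all 4 arrays. Thus no primordium marker stood above the median on every array, and LEAFY, APETALA1 and AGAMOUS were not among the genes named. Of the 8 pollen markers named, 2 read above the median on all 6 RNA arrays, the MADS gene AGL65 (9.74 and 9.11 in CL, 8.99 and 9.45 in INT) and the tubulin TUA1 (9.63 and 9.31 in CL, 9.68 and 9.33 in INT). ANXUR1 (ANX1) and ANXUR2 (ANX2), kinases of the pollen tube tip, read below 6 on all 4 arrays, and the pollen list had a median difference of -0.0073 between CL and INT (4 higher, 4 lower), which was 0.24 without CL 2. Of 34 root and seed markers 2 were named, the expansins EXPA7 and EXPA18, with overlapping arrays and differences of 0.22 (-0.13 without CL 1) and 0.21 (-0.057 without INT 2). EXPA7 read 9.04 and 8.35 in CL and 8.51 and 8.45 in INT. EXPA18 read 8.94 and 8.72 in CL and 8.89 and 8.35 in INT. Both root markers thus stood above the median on all 4 arrays, though not on every CH array.

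No probe set passed the test of CL against INT. The limma fit across all probe sets gave a smallest Benjamini-Hochberg adjusted p of 0.985, and 0 of 22746 probe sets (percent called, 0%) had an adjusted p under 0.05. At an unadjusted p under 0.05, 504 probe sets had a higher mean in CL (2.22%) and 497 a lower mean (2.18%), 1001 in all (4.4%). If no probe set differed between the types, about 1137 would be expected at that threshold. Both arrays of 1 type read above both arrays of the other for 7505 probe sets (33%), with CL above INT for 3859 (17%) and below for 3646 (16%). A difference of at least 2-fold without overlap was seen for 574 probe sets higher in CL (2.52%) and 569 lower (2.5%). With 2 arrays against 2, about 33% without overlap would also be expected if the types did not differ. Over the genes named alone, with 1 probe set each, 32.9% did not overlap. These shares are the background for every count below. The 95% interval of a difference reached a median of 0.90 log2 units to either side, before any adjustment for the number of probe sets tested. The p-values and intervals rest on the spread between pools within each flower type, CH included, and draw in part on other probe sets. They are thus not the spread of the CL and INT pools alone. In pooled tissue, fewer cells of a type and less RNA per cell cannot be told apart.

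The replicates of CL differed from each other more than CL 2 differed from either INT array. Over all probe sets, CL 1 and CL 2 had a median absolute difference of 0.388 log2 units, and INT 1 and INT 2 one of 0.325. Across types, CL 2 differed from INT 1 by 0.296 and from INT 2 by 0.332, whereas CL 1 differed from them by 0.397 and 0.400. The share of probe sets at least 2-fold apart was 15.4% between the CL arrays, 12.9% between the INT arrays and 11.3% between CL 2 and INT 1. As a description across probe sets, CL 2 correlated with INT 1 at r = 0.936 and with CL 1 at r = 0.914. CL 1 was thus the array that stood apart. Leaving out 1 array moved the difference by over 1.5 times, or turned its sign, in 82 of the 133 genes tried, and for most such genes whose difference is printed below, the value closest to 0 or past it follows with the array left out.

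**Figure D1:**
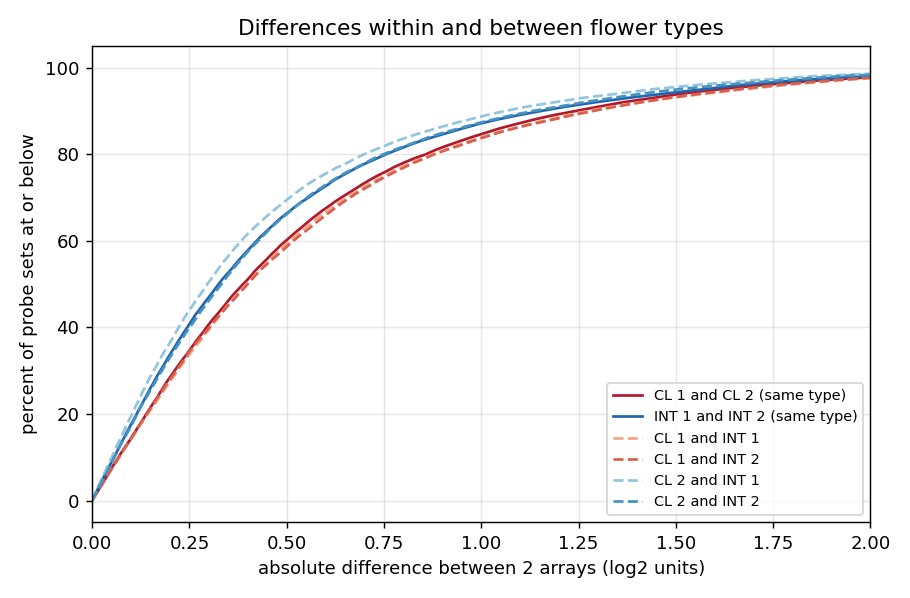
Share of probe sets (vertical axis) whose absolute difference between 2 arrays is at or below the value on the horizontal axis, in log2 units, for the 2 pairs within a flower type (solid) and the 4 pairs across types (dashed). The pair of CL 2 and INT 1 lies closest to 0, with a median of 0.296, ahead of both pairs of replicates.

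Described first are the genes with the lowest p among 157 probe sets of nuclear genes with a symbol. These probe sets had a CL mean above the median and were higher in CL without overlap. How many such probe sets overlapped was not counted, so no share stands beside 157. A difference is the CL mean minus the INT mean. Since genes were picked by low p in both directions, intervals that leave out 0 follow from that choice. Cpn60beta2, a subunit of the chaperonin that folds Rubisco and other chloroplast proteins, read 12.35 and 11.99 in CL and 11.14 and 10.97 in INT, with CH at 11.00 and 10.90. Both CL arrays lay above the other 4 arrays. The difference was 1.12 log2 units, 2.17-fold (95% interval from 0.66 to 1.57, limma adjusted p = 0.985). XIJ, a class XI myosin that moves organelles along actin, read 8.74 and 8.49 in CL against 7.01 and 7.26 in INT. Here the CH arrays, at 9.002 and 8.81, were above both types, and CL exceeded INT by 1.49 log2 units, 2.8-fold (95% interval from 0.64 to 2.34). AUR2, an Aurora kinase that acts in cell division, read 9.75 and 9.40 in CL and 8.69 and 8.03 in INT. The difference was 1.22 log2 units, 2.33-fold (95% interval from 0.50 to 1.94). THO7, a subunit of the THO complex for mRNA export, read 8.51 and 8.29 in CL and 6.61 and 6.57 in INT, and the CL arrays stood above all 4 others. A second probe set with this symbol, for another gene, overlapped and was lower in CL by its mean (difference -0.71). XIJ and the first THO7 probe set read below the median in INT, where a ratio depends on the added offset. With all arrays kept, other settings gave differences of 1.13 to 1.70 for XIJ and 1.29 to 2.17 for this THO7 probe set.

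The cytoskeletal genes TUB9 and ACT11 were also among the genes chosen as higher on both CL arrays. TUB9, a beta-tubulin, read 11.38 and 10.93 in CL and 10.49 and 10.19 in INT, a difference of 0.81 log2 units, 1.76-fold (95% interval from 0.29 to 1.34). The CH arrays, at 10.89 and 11.15, overlapped CL. ACT11, an actin of reproductive organs in Arabidopsis, read 10.69 and 10.04 in CL against 9.55 and 9.76 in INT, a difference of 0.71, of which CL 1 carried the larger share: it was 0.40 without CL 1 and 1.02 without CL 2.

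The beta-glucosidase PYK10 of endoplasmic reticulum bodies was bright, at 14.00 and 14.13 in CL and 13.49 and 12.81 in INT, with a difference of 0.92 (95% interval from 0.23 to 1.60). The plant defensin PDF2.1 read 9.36 and 9.68 in CL and 6.93 and 8.61 in INT. The INT arrays of PDF2.1 lay far apart, and its difference of 1.75 was 0.91 without INT 1 and 2.602 without INT 2. PYK10 had 0.57 without INT 2 and 1.26 without INT 1.

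The other 4 of the 12 genes were FRO1, a subunit of mitochondrial complex I (difference 0.94), MOB1-like of the kinase signalling that controls growth (0.85), the wall polysaccharide acetylation family member TBL25 (0.63) and the proton pump subunit VHA-A2 (0.51). VHA-A2 read 9.90 and 10.09 in CL and 9.49 and 9.47 in INT, while CH was higher than both types at 10.24 and 10.20. MOB1-like had the same order, with CL at 9.29 and 9.40, INT at 8.81 and 8.19 and CH at 9.60 and 9.68; its difference ran from 0.54 without INT 2 to 1.15 without INT 1. By size of difference rather than p, XTH16 and OPCL1 joined THO7 and PDF2.1. OPCL1, the ligase that activates a jasmonate precursor, read 9.32 and 9.66 in CL and 9.13 and 6.35 in INT. Only INT 2 was low, and the difference of 1.75 (95% interval from -0.043 to 3.54) was 0.36 without that array and 3.14 without INT 1.

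**Figure D2:**
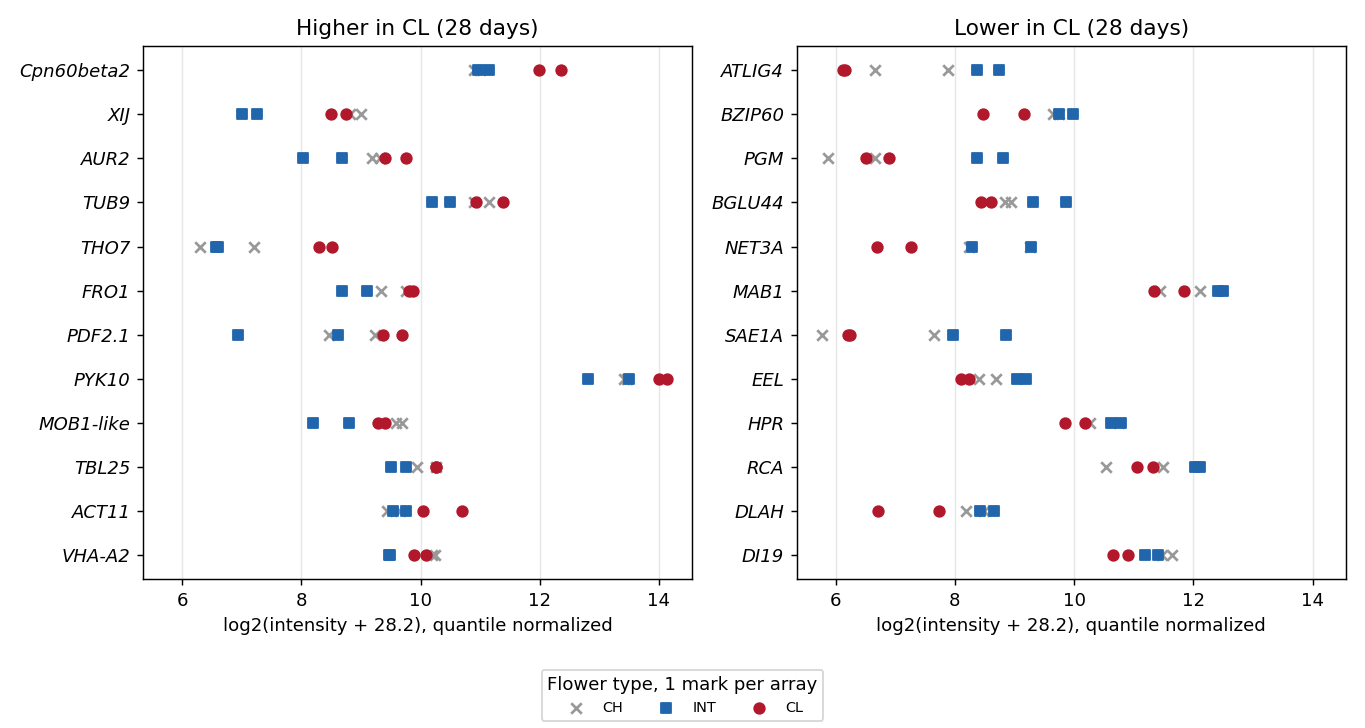
Level on each RNA array, as log2(intensity + 28.2) on the horizontal axis, of the 12 genes with the lowest p among those higher in CL and the 12 among those lower in CL, with 1 mark per array and flower type by colour. The CL and INT marks of each gene do not overlap, as the choice of genes required, and CH marks fall on either side or between.

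Lower in CL without overlap were 160 probe sets of nuclear genes with a symbol that read above the median in INT. No share stands beside this count either. The 12 genes with the lowest p are described next. ATLIG4, the DNA ligase of end joining, read 6.12 and 6.15 in CL and 8.73 and 8.37 in INT, with CH between them at 7.88 and 6.67. It had the largest difference of the 24 genes, -2.42 log2 units, 5.35-fold lower in CL (95% interval from -3.70 to -1.14, limma adjusted p = 0.985). SAE1A, a subunit of the enzyme that activates SUMO, read 6.25 and 6.20 in CL and 8.86 and 7.97 in INT, a difference of -2.19 log2 units, 4.57-fold lower (95% interval from -3.81 to -0.58). Its CL arrays were close together and its INT arrays were not. NET3A, of a family of actin-binding membrane adaptors, read 7.26 and 6.69 in CL and 9.28 and 8.29 in INT, a difference of -1.81 log2 units, 3.51-fold lower (95% interval from -3.04 to -0.58). These genes read below the median in CL, where a ratio depends on the added offset. With all arrays kept, other settings gave -3.02 to -1.66 for ATLIG4, -2.72 to -1.51 for SAE1A and -2.07 to -1.38 for NET3A.

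The 12 genes also held enzymes and enzyme subunits. PGM, named in Arabidopsis as a phosphoglycerate mutase of glycolysis, read 6.90 and 6.50 in CL and 8.36 and 8.81 in INT, a difference of -1.89 log2 units, 3.7-fold lower (95% interval from -3.08 to -0.70). CH was also below INT and overlapped CL, at 5.87 and 6.66. With all arrays kept, other settings gave -2.23 to -1.38 for the difference of PGM. MAB1, the beta subunit of mitochondrial pyruvate dehydrogenase, read 11.34 and 11.84 in CL and 12.51 and 12.41 in INT, a difference of -0.87 (95% interval from -1.51 to -0.23). RCA, the activase that keeps Rubisco working, read 11.33 and 11.05 in CL and 12.10 and 12.03 in INT, a difference of -0.88 (95% interval from -1.59 to -0.18). HPR, the hydroxypyruvate reductase of photorespiration, read 10.19 and 9.85 in CL and 10.63 and 10.79 in INT, a difference of -0.69. In each of these genes both CL arrays were below both INT arrays, as the choice of genes required. BGLU44, a beta-glucosidase family member that releases sugars from small glycosides, differed by -1.07, and DLAH, a lipid acylhydrolase, by -1.32 (-1.85 without CL 2 and -0.81 without CL 1).

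The remaining genes were BZIP60, EEL and DI19. BZIP60, the transcription factor of the unfolded protein response, read 9.15 and 8.47 in CL and 9.99 and 9.74 in INT, a difference of -1.05 that was -1.42 without CL 1 and -0.70 without CL 2. EEL, a basic leucine zipper factor of the abscisic acid pathway in seeds, read 8.10 and 8.24 in CL and 9.04 and 9.19 in INT, a difference of -0.95 (95% interval from -1.66 to -0.23). The drought response protein DI19 read 10.90 and 10.65 in CL and 11.41 and 11.19 in INT. Its difference was -0.52 (95% interval from -0.97 to -0.08), and CH was above both types at 11.48 and 11.64.

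Without the condition on a symbol, the lowest p in each direction fell mainly on genes known by locus number, and their CH values gave different orders of the flower types. AT3G22240 read 8.47 and 8.30 in CL, 6.48 and 6.66 in INT and 9.25 and 9.26 in CH, so that closed and open flowers were both above INT. AT2G45340 had CL at 9.54 and 9.43, INT at 8.31 and 8.13 and CH at 9.34 and 9.43, again with INT lowest. AT2G31390, at 9.88 and 9.95 in CL and 8.65 and 7.98 in INT, had CH between them at 9.55 and 9.21. Among those lower in CL, AT2G05370 read 6.86 and 6.53 in CL, 8.69 and 8.88 in INT and 8.44 and 7.90 in CH. AT1G78040 read 8.30 and 7.87 in CL, 9.47 and 9.60 in INT and 8.88 and 8.47 in CH. Both had CL lowest, INT highest and CH between. AT3G56750 had CH arrays far apart, at 7.77 and 9.22, against 6.94 and 6.87 in CL and 9.42 and 9.37 in INT. AT3G59190 read 6.65 and 6.57 in CL and 9.09 and 8.31 in INT, and its CH arrays, at 8.16 and 8.53, overlapped INT.

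**Figure D3:**
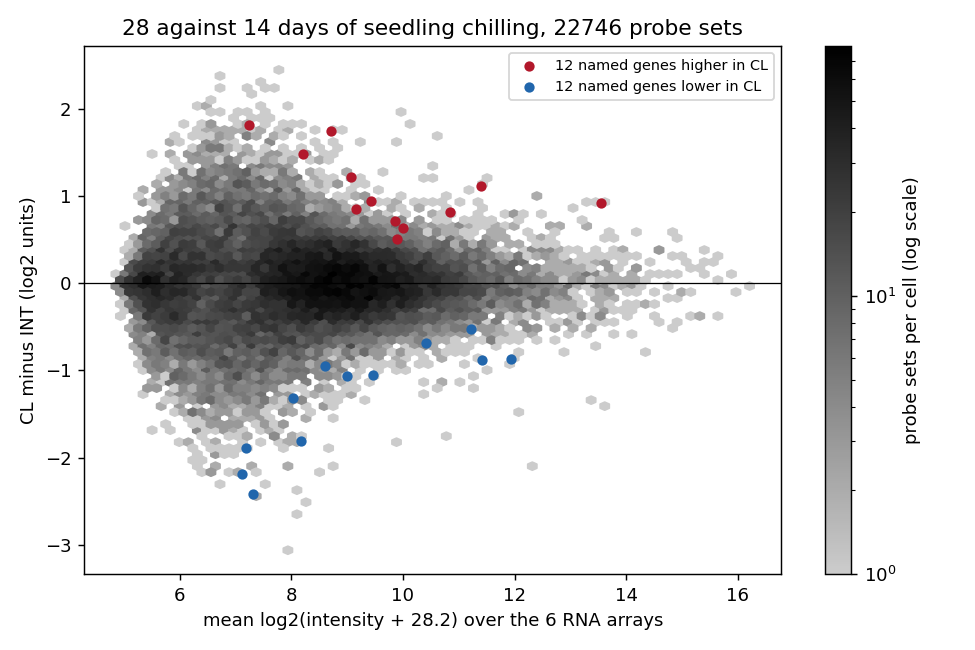
Difference CL minus INT in log2 units (vertical axis) against the mean level over the 6 RNA arrays (horizontal axis) for all 22746 probe sets, shaded by the number in each cell on a log scale. Coloured points are the 12 named genes in each direction. They lie within the range of the other probe sets, whose largest difference was 3.06 in size.

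Genes of the cold response did not share a direction. Of 68 listed, 6 were measured, 4 with a higher mean in CL and 2 with a lower one. The median was 0.18 (-0.21 without CL 2) against 0.0042 for all genes named alone. Without overlap were 3 (1 higher, 2 lower), 50% against 32.9% for all genes named alone. The chloroplast protective protein COR15B read 9.36 and 8.55 in CL and 8.36 and 8.23 in INT, a difference of 0.66 (95% interval from -0.23 to 1.56, 0.26 without CL 1). Its relative COR15A read 6.54 and 7.81 in CL and 5.603 and 7.49 in INT, with overlap and a wide gap within each type. The dehydrin LTI30 read 6.81 and 6.91 in CL and 7.14 and 8.44 in INT, both CL arrays lower, a difference of -0.93 (-0.28 without INT 2). DI19, given above, was the member with an unadjusted p under 0.05.

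Of 100 listed genes of vernalization and flowering time, 10 were measured, of which 8 had a lower mean in CL, with a median of -0.21 (-0.31 without CL 1, -0.10 without CL 2). None had an unadjusted p under 0.05, and 3 did not overlap (30%, all genes named alone 32.9%), all lower. LD (LUMINIDEPENDENS), a gene of the autonomous flowering pathway, read 7.61 and 8.31 in CL and 8.42 and 8.92 in INT, a difference of -0.71 (95% interval from -1.70 to 0.27, -0.37 without CL 1). ATC, a relative of TERMINAL FLOWER 1 that delays flowering, read 6.05 and 5.95 in CL and 6.41 and 6.32 in INT, a difference of -0.36 (95% interval from -1.16 to 0.43). Both had the CL arrays below the INT arrays. The flowering promoters AGL19, AGL24 and FD overlapped, as did GI, at 11.34 and 11.48 in CL and 11.23 and 11.67 in INT. AGL19, which responds to vernalization in Arabidopsis, had 8.19 and 7.79 in CL and 7.42 and 7.79 in INT. AGL42 had a difference of -0.54 (-0.098 without CL 2) with overlap. The floral repressor FLC was not among the genes named.

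In floral meristem and organ patterning, 18 of 109 listed genes were measured, 11 with a higher and 7 with a lower mean in CL. The median was 0.17 (-0.11 without CL 1). Without overlap 3 were higher and 5 lower (44.4%, all genes named alone 32.9%). ARL, which promotes cell expansion in lateral organs, read 9.76 and 9.30 in CL and 8.85 and 8.99 in INT, and was the list's 1 member at an unadjusted p under 0.05 (difference 0.62, 0.39 without CL 1). PETAL LOSS, a repressor of growth between sepals, read 6.48 and 6.74 in CL and 6.19 and 5.24 in INT, a difference of 0.89 (95% interval from -0.15 to 1.94, 0.42 without INT 2), where INT 2 was the lowest array; with all arrays kept, other settings gave 0.43 to 1.67. Its CH arrays, at 6.79 and 6.78, were slightly above CL. SAP (STERILE APETALA), which promotes petal and stamen growth, read 5.73 and 7.44 in CL and 7.97 and 7.92 in INT, a difference of -1.36 (95% interval from -2.99 to 0.26, -0.50 without CL 1). PHV, an upper-side identity factor, read 9.37 and 9.58 in CL and 10.21 and 9.77 in INT, a difference of -0.51 (-0.29 without INT 1). For both SAP and PHV, CL was below INT on every array. CLV3 read 7.37 and 7.17 in CL and 6.57 and 6.29 in INT, a difference of 0.84 (95% interval from -0.16 to 1.85), with CL above INT and CH.

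Of 68 listed stamen and tapetum genes 7 were measured, with 4 higher, 3 lower and a median of 0.018 (-0.27 without INT 2). Only 1 did not overlap (14.3%, all genes named alone 32.9%). That was SPL, needed to start sporogenous cells, with 6.34 and 6.67 in CL and 5.78 and 6.14 in INT. The tapetum factor AMS differed by -0.60 (-0.25 without CL 2) with overlap. ROXY1, a glutaredoxin of petal and anther development, read 7.45 and 6.56 in CL and 8.67 and 6.54 in INT, so its INT arrays spanned the CL values. Of 64 listed genes of meiosis 6 were measured, 4 with a lower mean in CL, with a median of -0.44 (-0.19 without CL 1). Of these 4, 3 did not overlap (50% of the list, all genes named alone 32.9%). ZYP1b, of the synaptonemal complex, read 5.61 and 7.42 in CL and 7.69 and 7.72 in INT, a difference of -1.19 (95% interval from -3.07 to 0.68, -0.28 without CL 1). DFO, needed for meiotic breaks, read 6.36 and 7.29 in CL and 7.44 and 8.36 in INT, a difference of -1.07 (95% interval from -2.596 to 0.45, -0.61 without CL 1). In ZYP1b the low value was that of CL 1 and CL 2 lay near INT, while the CH arrays were as far apart as the CL arrays, at 5.69 and 7.63.

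Among genes of cell division, 8 of 113 listed were measured, with 5 higher and 3 lower and a median of 0.13 (0.069 without INT 1, 0.36 without CL 1). With all arrays kept, another setting gave a median of -0.072. Besides AUR2, the spindle checkpoint protein BUB3.1 had an unadjusted p under 0.05. BUB3.1 read 11.05 and 11.61 in CL and 11.99 and 12.17 in INT, a difference of -0.74 (95% interval from -1.38 to -0.10, -0.47 without CL 1), the opposite sign to AUR2. The other Aurora kinases AUR1 and AUR3 differed by -0.20 and 0.21. SIM, an inhibitor of the cell cycle in trichomes, read 8.65 and 8.65 in CL and 8.03 and 8.06 in INT, with CH lower at 5.76 and 7.72. Of 9 tubulins and actins, 5 were higher and 4 lower, with a median of 0.067. Without overlap were 5 (55.6%, all genes named alone 32.9%), 4 of them higher. Both members with an unadjusted p under 0.05 were TUB9 and ACT11, described above. Of 6 histones, 5 had a higher mean in CL, with a median of 0.13 (0.027 without CL 1), and HTB11 had the largest difference, -0.70 (-0.22 without INT 2).

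Of 51 listed gibberellin genes 7 were measured, and 6 had a lower mean in CL, with a median of -0.20 (-0.41 without INT 1, -0.19 without CL 1). With all arrays kept, another setting gave a median of -0.11. Without overlap 4 were lower and 1 higher (71.4% of 7, all genes named alone 32.9%), and none had an unadjusted p under 0.05. SEC, an enzyme that adds sugar residues to DELLA growth repressors, read 10.12 and 10.58 in CL and 10.68 and 10.79 in INT, a difference of -0.39 (95% interval from -0.88 to 0.11, -0.16 without CL 1). The receptors went different ways. GID1B read 7.87 and 7.81 in CL and 8.21 and 8.29 in INT, a difference of -0.41. GID1C read 8.88 and 8.95 in CL and 8.30 and 8.69 in INT, a difference of 0.42 (0.22 without INT 1). GID1A overlapped, with a difference of -0.083. GIS, a zinc finger gene of gibberellin signalling in trichomes, differed by -0.34 without overlap.

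In the auxin pathway 19 of 132 listed genes were measured, 12 higher and 7 lower, with a median of 0.075 (0.054 without CL 1, 0.24 without INT 2). Without overlap 5 were higher and 3 lower (42.1%, all genes named alone 32.9%). IAA31, an auxin response repressor, read 7.55 and 7.51 in CL and 6.64 and 6.28 in INT, a difference of 1.07 (95% interval from 0.003 to 2.13, unadjusted p under 0.05). YUC4, a synthesis enzyme active in flowers, read 8.69 and 9.06 in CL and 8.36 and 8.39 in INT, a difference of 0.50 (0.32 without CL 2). WES1, which conjugates auxin to amino acids, read 9.51 and 9.70 in CL and 10.20 and 10.13 in INT, a difference of -0.56. YUC4 was thus higher and WES1 lower on both CL arrays. PID2, a kinase of the PINOID group, read 7.84 and 7.91 in CL and 7.60 and 5.72 in INT, and its difference of 1.22 was 0.28 without INT 2.

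Of 61 listed jasmonate genes 11 were measured, 7 higher and 4 lower, with a median of 0.25 (-0.087 without INT 1). Without overlap 3 were higher and 3 lower (54.5%, all genes named alone 32.9%). The methyltransferase JMT, which makes methyl jasmonate, read 7.11 and 7.40 in CL and 5.38 and 5.88 in INT, a difference of 1.63 (95% interval from 0.31 to 2.94, unadjusted p under 0.05). PDF1.2, a defensin induced by jasmonate and ethylene, was dim, at 5.15 and 5.10 in CL and 6.24 and 6.04 in INT, a difference of -1.02 (95% interval from -1.59 to -0.45, unadjusted p under 0.05). JMT was above and PDF1.2 below INT on both CL arrays. Being dim, both depended on the processing with all arrays kept: JMT ran from 0.88 to 2.56 and PDF1.2 from -2.51 to -0.42. MYC4, a transcription factor of jasmonate responses, read 8.98 and 9.23 in CL and 9.62 and 9.50 in INT, a difference of -0.46. Of 2 ethylene genes measured, RTE1, which acts with the receptor ETR1, had 7.07 and 7.03 in CL and 8.40 and 7.64 in INT, and EIN3 differed by -0.11 (-0.072 without CL 1). Of 3 cytokinin and brassinosteroid genes, ARR15 differed by 0.52, BIM1 by 0.17 (0.082 without CL 2) and BRL1 by -0.026 (0.46 without CL 2). EEL was the 1 abscisic acid gene measured.

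Enzymes that loosen or remodel the wall had more members higher than lower in CL. Of 129 listed expansins and xyloglucan enzymes, 28 were measured, 17 with a higher and 11 with a lower mean. The median was 0.21 (0.14 to 0.26 when each array was left out in turn). Without overlap 11 were higher and 2 lower (46.4%, all genes named alone 32.9%). The list mean was 8.29 on CL 1 and 8.15 on CL 2 against 7.93 on INT 1 and 7.95 on INT 2, with CH at 8.08 and 7.89. Over the brighter 11373 probe sets alone, the median of the list was -0.15. XTH16, a xyloglucan endotransglucosylase, read 12.17 and 10.15 in CL and 9.32 and 9.34 in INT; the difference was 1.83, and 0.84 without CL 1. XTH18, of the same family, was dim, with 8.11 and 7.41 in CL and 5.49 and 7.21 in INT, a difference of 1.41 (95% interval from -0.088 to 2.91, 0.56 without INT 1). EXLA1, an expansin-like protein, read 7.62 and 7.56 in CL and 6.34 and 6.99 in INT, a difference of 0.92 (0.60 without INT 1). The bright expansin EXPA4 went the other way, at 11.39 and 11.78 in CL and 11.92 and 12.12 in INT, a difference of -0.43 (-0.24 without CL 1). Family members share sequence, so a probe set may bind the transcript of a relative. Of 4 wall synthesis genes, COB, which orients cellulose deposition, differed by 0.41 (0.24 without CL 1) and the glucan synthase CSLC04 by 0.38 (0.20 without CL 1), both without overlap; CSLC12 differed by -0.34 (-0.041 without INT 2) and CSLD2 by -0.036 (0.17 without CL 2).

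**Figure D4:**
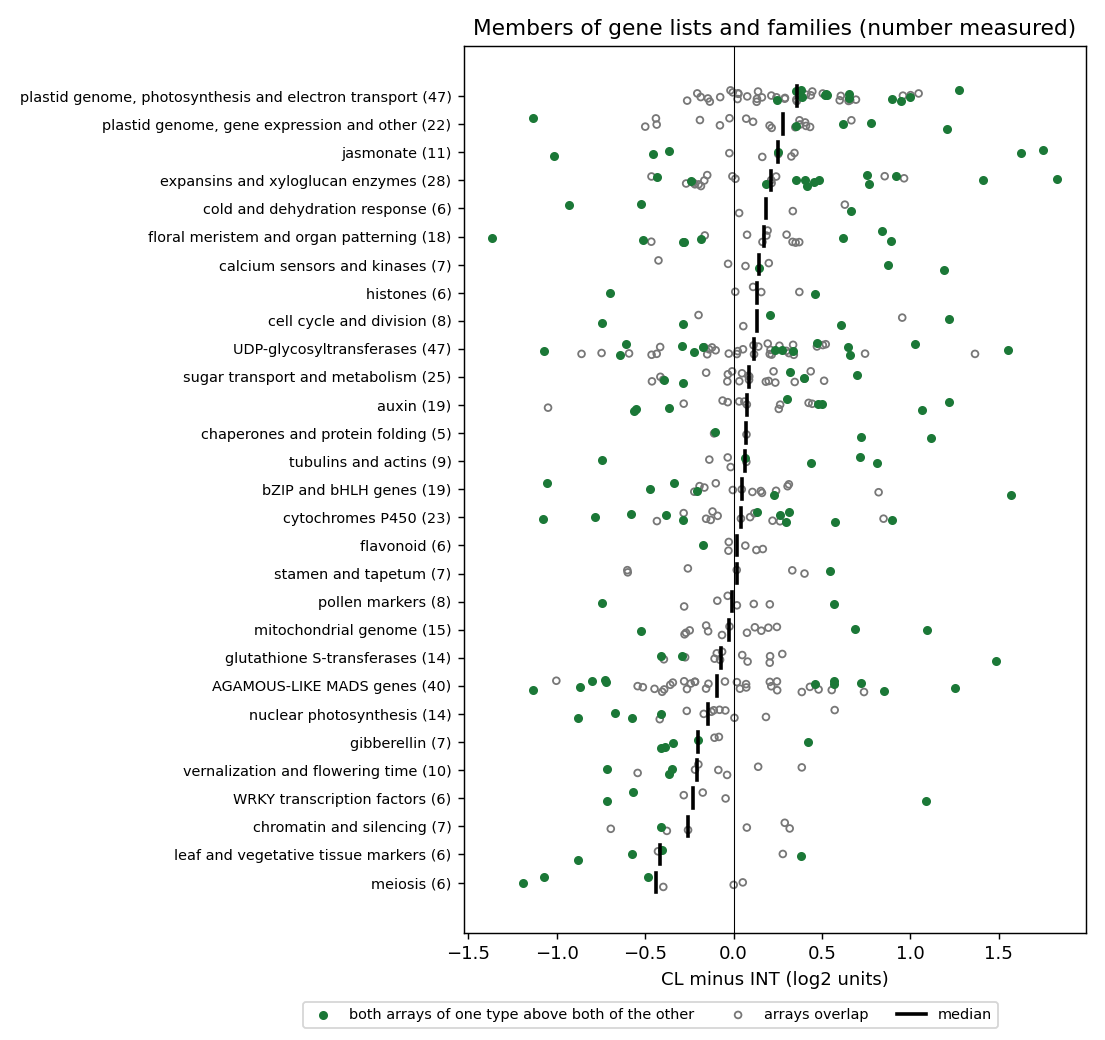
Difference CL minus INT in log2 units of every measured member of each gene list and family with at least 5 members, with the number measured in brackets. Filled points mark members with both arrays of 1 type above both of the other, open points those that overlap, and the bar is the median, which runs from -0.44 in meiosis to 0.36 in photosynthesis genes of the plastid genome.

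Photosynthesis genes of the nuclear and plastid genomes had medians of opposite sign. Of 102 listed nuclear genes 14 were measured, 11 with a lower and 3 with a higher mean in CL. The median was -0.15 (-0.36 without CL 1, 0.022 without CL 2). Without overlap 4 were lower and none higher (28.6%, all genes named alone 32.9%). PORB, a chlorophyll synthesis enzyme, read 12.02 and 11.90 in CL and 12.32 and 12.75 in INT, a difference of -0.57 (95% interval from -1.07 to -0.074, -0.36 without INT 2). ATPC1, a subunit of the chloroplast ATP synthase, read 10.83 and 11.59 in CL and 11.68 and 12.08 in INT, a difference of -0.67 (95% interval from -1.32 to -0.023, -0.29 without CL 1). LHCB4.2, an antenna protein, read 13.56 and 13.65 in CL and 13.93 and 14.09 in INT. With RCA, these were the 4 members lower without overlap. RCA and PORB also stand on the list of leaf and vegetative tissue markers, of which 6 of 23 were measured, 4 with a lower mean in CL, with a median of -0.42 (-0.070 without INT 1). The leaf list had a mean level per array of 8.69 and 8.78 in CL and 9.13 and 8.89 in INT. Of its members, 3 read above the median on all 6 RNA arrays, RCA, PORB and FMA. FMA, a factor of stomatal guard cells, read 9.02 and 9.56 in CL and 9.65 and 9.74 in INT, a difference of -0.40 (-0.13 without CL 1) without overlap. The earlier stomatal factors MUTE (5.74 and 5.91 in CL, 5.37 and 5.51 in INT) and SPCH (6.80 and 7.71 in CL, 8.41 and 6.95 in INT) were dimmer. The part of leaf tissue in the nuclear photosynthesis values was not tested.

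Of 47 photosynthesis and electron transport genes of the plastid genome, 39 had a higher mean in CL and 8 a lower one, and 13 were higher and none lower without overlap (27.7%, where all probe sets had 33%). Their median of 0.36 was 0.11 without CL 1 and 0.64 without INT 1. The mean of the 47 genes was 11.61 on CL 1, 11.32 on CL 2, 11.35 on INT 1 and 10.82 on INT 2, so the types overlapped and INT 2 was lowest. INT 2 held the lowest of the 4 values in 34 of the genes, and CL 1 the highest in 24. The CH arrays lay farther apart than the INT arrays, at 11.46 and 10.78. The photosystem I subunit gene psaJ read 12.83 and 12.95 in CL and 12.03 and 11.76 in INT, and CH read 12.17 and 12.21. ndhE, of the NDH complex around photosystem I, read 10.52 and 9.95 in CL and 9.20 and 8.73 in INT, a difference of 1.27 (95% interval from 0.44 to 2.108). cemA, an envelope membrane protein gene, differed by 0.66 (95% interval from 0.17 to 1.14) and ycf4, of photosystem I assembly, by 0.53 (95% interval from 0.03 to 1.03, 0.32 without INT 2). On the genomic DNA array, 46 of the 47 probe sets read above the 95th percentile of all probe sets. That level also depends on the copy number of plastid DNA in leaves, so it is no measure of probe match alone.

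The other plastid genes, for transcription, translation and further functions, did not follow the same arrays. Of 22 measured, 15 were higher and 7 lower in CL, with a median of 0.28 (-0.057 without INT 2). Without overlap 4 were higher and 1 lower (22.7%, all genes named alone 32.9%). Here CL 2 had the highest mean, 11.19, ahead of INT 1 at 10.97, CL 1 at 10.65 and INT 2 at 10.53. rpoC1, a plastid RNA polymerase subunit, read 11.18 and 11.77 in CL and 10.39 and 10.15 in INT, a difference of 1.205 (95% interval from 0.10 to 2.31), and rpoA, another subunit, differed by 0.78 (0.46 without CL 1). The ribosomal protein gene rps16 read 6.74 and 8.51 in CL and 8.71 and 8.81 in INT, the opposite sign (-0.25 without CL 1), and rpl33 differed by 0.62 (0.37 without CL 1). Of 15 mitochondrial genes 7 were higher and 8 lower, with a median of -0.023 (0.28 without INT 1), and nad4, a complex I subunit, read 11.93 and 12.05 in CL and 11.21 and 10.58 in INT. Cpn60beta2 was the chaperone that differed most among 5 measured of 94 listed, and its relative Cpn60beta3 read 9.21 and 9.85 in CL and 8.87 and 8.76 in INT, a difference of 0.72 (95% interval from -0.061 to 1.499, 0.39 without CL 2). ATJ1 and CRT1b differed by -0.11 (0.056 without INT 2) and 0.073 (-0.016 without CL 1), and the list had 3 members higher, 2 lower and a median of 0.073 (-0.016 without CL 1).

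**Figure D5:**
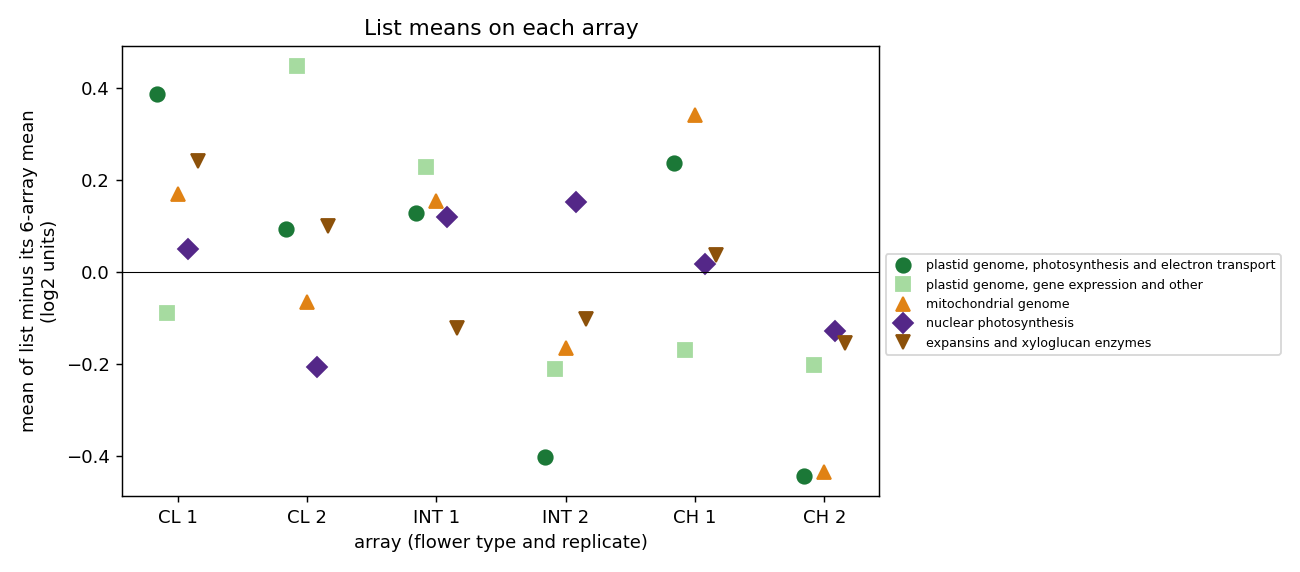
Mean level of 5 gene groups on each of the 6 RNA arrays, as the difference from the group's mean over those arrays, in log2 units; marks are shifted sideways for legibility. Photosynthesis genes of the plastid genome are highest on CL 1 and lowest on CH 2 and INT 2, and expansins and xyloglucan enzymes are higher on both CL arrays than on both INT arrays.

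Sugar transport and metabolism had 25 of 134 listed genes measured, 16 higher and 9 lower, with a median of 0.087 (-0.14 without INT 1, 0.35 without CL 2). Without overlap 3 were higher and 2 lower (20%, all genes named alone 32.9%). The sugar carrier SWEET2 read 9.16 and 8.68 in CL and 8.005 and 8.44 in INT, a difference of 0.70 (0.46 without CL 1), and SWEET4 differed by 0.32. TMT2, a vacuolar sugar carrier, differed by -0.39 (-0.22 without CL 2) and DPE1, a starch breakdown enzyme, by -0.46 (-0.22 without CL 1). The 6 flavonoid genes lay between -0.17 (UGT78D1) and 0.17 (DFR), with a median of 0.020 (-0.086 without CL 1). Of 7 chromatin and silencing genes 3 were higher and 4 lower, with a median of -0.26 (-0.023 without CL 1, and 0.075 with all probe sets of a gene averaged), and the histone deacetylase HDA15 read 9.16 and 9.15 in CL and 9.65 and 9.48 in INT. The DNA demethylase DME was read by 3 probe sets that disagreed, with differences of 0.17, 1.26 and -0.69, the last at -0.023 without CL 1. FATB, the thioesterase that releases saturated fatty acids, was the 1 lipid gene measured and differed by 0.24 (0.098 without INT 1).

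Large families were split between directions. Of 47 UDP-glycosyltransferases 28 were higher and 19 lower, with a median of 0.12, and 14 did not overlap (8 higher, 6 lower). That was 29.8%, where all genes named alone had 32.9%. UGT71C3, a member that glycosylates small molecules, read 7.53 and 6.81 in CL and 5.67 and 5.56 in INT, a difference of 1.55 (95% interval from 0.54 to 2.56, unadjusted p under 0.05). Of 40 AGAMOUS-LIKE MADS genes 19 were higher and 21 lower, with a median of -0.096, and AGL89 (1.25, 0.67 without INT 1) and AGL99 (-0.87, -0.32 without INT 2) had the lowest p. Of 23 cytochromes P450 12 were higher and 11 lower, and CYP71B30P differed by -1.08. Of 14 glutathione S-transferases 6 were higher, among them GSTU28 at 6.32 and 8.19 in CL and 5.76 and 5.78 in INT. Of 6 WRKY factors 5 were lower, and WRKY42 was the exception, at 7.24 and 6.04 in CL and 5.42 and 5.69 in INT. Among 7 calcium sensors and kinases 5 were higher, and the calmodulin-like CML37 read 6.84 and 6.18 in CL and 5.18 and 5.46 in INT, a difference of 1.19 (95% interval from 0.41 to 1.97, unadjusted p under 0.05). Of 19 named bZIP and bHLH genes 10 were higher and 9 lower, and the NAC gene measured, NAC014, differed by 0.15 (-0.16 without INT 1). BZIP24, a salt stress factor, read 8.07 and 7.20 in CL and 6.597 and 5.55 in INT. UGT71C3, GSTU28, WRKY42 and CML37 were dim on the INT arrays, all below a level of 6, as JMT was, and there a ratio depends on the added offset.

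The level of a probe set on the genomic DNA array depends on how well it binds Cardamine DNA and on the copy number of its target in leaf DNA. Among the named genes, NET3A stood at the percentile 7.17 of all probe sets on that array and SAE1A at 3.6, while ATLIG4 stood at 95.1, EEL at 94.8 and Cpn60beta2 at 74.2. XIJ was at 39.8 and THO7 at 31.2. A low percentile limits what a level says about the transcript, since few of the probes may match. The differences of NET3A and SAE1A carry that limit. So do those of other genes described above, among them MUTE at 0.76, AGL99 at 1.31, GIS at 3.23 and GID1B at 5.98. EXLA1 stood at 7.9, WRKY42 at 9.98, Cpn60beta3 at 10.2 and PDF1.2 at 10.4. The receptors GID1B and GID1C were thus not read equally well on this measure, since GID1C stood at 57.2.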

How the data were processed

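The deposited values were linear, positive intensities of 22810 probe sets on 7 Affymetrix ATH1 arrays; the authors had calibrated the RNA arrays by genomic DNA hybridization, per the labels. Which software summarized the probes is not given in the sources used here. Each array had a trimmed mean of 500. Arrays have no read depth; their number limits the precision. After removal of 64 control probe sets, log2(intensity + 28.2) was computed, which understates the fold of dim genes, and quantile normalized over the 6 RNA arrays, whose medians had spanned 0.191. limma 3.58.1 (R 4.3.3) compared CL and INT in a fit of flower type on the 6 RNA arrays (eBayes with trend, two-sided), with Benjamini-Hochberg adjustment over 22746 probe sets. The code was tested on simulated data. Figures used matplotlib 3.10.9.

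Gene symbols came from the platform annotation. In the lists and families, a gene with several probe sets was read by the brightest over the RNA arrays. Genes named by p or by size of difference were drawn from all probe sets. The lists, families and members were chosen with earlier results of these data known. Named were nuclear genes with a symbol whose CL and INT arrays did not overlap and whose higher mean exceeded the median: the 12 with the lowest p and the 4 with the largest difference in each direction, the 4 with the lowest p with or without a symbol, and up to 4 members of each list. Further list members were named after their values were seen. CCR2, PS1, CHI and CCT2 were left out of the lists because their annotation points to other genes.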

Additional observations from a re-analysis of the deposited data

Results flagged for a closer look

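The hybridization spike controls were bacterial transcripts added to each labelled sample and were not used in any comparison above. Their level differed between the types by mean, while the arrays overlapped. The 18 probe sets for bioB, bioC, bioD and cre had a mean log2 intensity of 12.07 and 11.56 on the CL arrays, 12.55 and 12.03 on the INT arrays and 12.27 and 11.40 on the CH arrays. The mean was lower in CL than in INT by 0.476 (difference -0.476), and both INT arrays were above both CL arrays in 9 of the 18. The array means overlapped, since CL 1 at 12.07 was above INT 2 at 12.03. By replicate number, INT 1 exceeded CL 1 by 0.478 and INT 2 exceeded CL 2 by 0.473, but the labels do not say that the numbers pair arrays. In each of the 3 types replicate 1 was above replicate 2, as it was for the 25S rRNA control, with intensities of 1823 and 393 in CL, 1961 and 630 in INT and 2652 and 146 in CH. Their part in the differences between CL and INT was not tested.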

How the results depend on the processing

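With 2 pools a group, no probe set passed the adjusted threshold in any of the 19 settings, and the smallest adjusted p ran from 0.239 (without CL 1) to 1.00. At an unadjusted p under 0.05, counts higher and lower in CL were 211 and 217 over the 11373 probe sets brighter than the median. They were 222 and 262 over the 11373 with genomic DNA intensity above its median, and 290 and 273 over the 13513 with exactly 1 gene. Each of these settings tested fewer than the 22746 probe sets of the main fit, so the counts are not comparable with the main ones. Leaving out 1 array at a time gave 385 to 742 higher and 448 to 1067 lower, the most without CL 2. Counts without overlap were 1879 higher and 1848 lower over the 11373 brighter probe sets, and 1860 and 1930 over the 11373 with genomic DNA signal. Over the 13513 with 1 gene they were 2307 and 2141. These counts too belong to the smaller numbers tested. They were not computed with a CL or INT array left out. With the replicate number as a block, 567 probe sets were higher and 603 lower over 6 arrays and 423 and 454 over 4 arrays, with no call gained or lost. Deviations of same-numbered arrays from their group means correlated across probe sets at -0.047 for CL and INT, 0.25 for CL and CH and -0.051 for INT and CH. The labels do not say what a replicate number shares, and the numbers were not taken to pair arrays. The spike controls, however, had replicate 1 above replicate 2 in every type.

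Of 133 genes run through the alternatives, 20 turned sign when 1 array was left out and 0 under any other setting. The lowest and highest differences with 1 array left out were -0.31 and 1.57 for COR15A, -0.061 and 0.87 for SWEET8, -1.67 and 0.47 for ROXY1, -0.95 and 0.15 for RCK, -0.51 and 0.46 for BRL1, -0.27 and 0.056 for ATJ1, -0.016 and 0.17 for CRT1b, -0.25 and 0.17 for CSLD2, -0.0040 and 0.33 for DFR, -0.11 and 0.37 for UF3GT, -0.22 and 0.35 for CCOAMT, -0.56 and 0.045 for SE, -0.016 and 0.66 for AGO7, -0.11 and 0.51 for AGL65, -0.79 and 0.23 for AGL104, -0.057 and 0.48 for EXPA18, -0.13 and 0.55 for EXPA7, -0.65 and 0.082 for cox2, -0.16 and 0.45 for NAC014, and -0.83 and 0.047 for GSTL3. The cause was not tested. Of 31 lists with at least 3 measured members, 22 had a median of the other sign in some setting.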
